A study of Drosophila melanogaster with 33 samples.

Results

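Chromatin accessibility was followed at 52 homeobox transcription factor genes of *Drosophila melanogaster*, chosen by name from a list of homeodomain families and of 18277 genes in the annotation. The members were the LIM genes *ap*, *Lim1*, *Lim3*, *tup* and *Awh*, the paired-like genes *al*, *Rx*, *hbn*, *otp*, *oc*, *unc-4* and *OdsH*, the PAX and sine oculis class genes *ey*, *toy*, *so* and *Optix*, and the Hox genes *lab*, *pb*, *Dfd*, *Scr*, *Antp*, *Ubx*, *abd-A* and *Abd-B*. They further included the NK, msh and Gsx genes *bsh*, *vnd*, *ind*, *Dr*, *slou* and *scro*, the TALE genes *hth*, *exd*, *mirr*, *ara* and *caup*, the POU genes *vvl*, *nub*, *pdm2*, *pdm3* and *acj6*, the cut genes *ct* and *onecut*, and the zinc finger homeodomain genes *zfh1* and *zfh2*. The remaining 8 were *ems*, *Dll*, *unpg*, *eve*, *en*, *inv*, *B-H1* and *B-H2*. A peak was given to a gene when it overlapped the gene body or the 1 kb upstream of it in the dm6 genome. By this rule 50 of the 52 genes held a peak in at least 1 of 33 ATAC-seq libraries, against 11153 of the 18277 genes. *al* and *ind*, which pattern appendages and the embryonic nerve cord, held none. Peaks of all libraries that overlapped were merged into 36210 regions, of which 230 belonged to the homeobox genes.

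ATAC-seq marks open chromatin by the sites where the Tn5 transposase can cut. The libraries came from adult fly brains in which the Clk-GAL4 driver, active in almost all clock neurons, put green fluorescent protein (GFP) into nuclei. Cells of pooled, dissociated brains were sorted by GFP, with clock neurons in the positive gate and all other brain cells (non-clock cells) in the negative gate, and cells that took up the dead-cell dye DAPI were left out of both. All flies carried the same driver and reporter (;ClkGAL4, UAS-GFP-NLS/+;). Wild-type clock neurons were collected under light-dark cycles (LD) at dawn (ZT0, 4 libraries) and dusk (ZT12, 4) and in constant darkness (DD) at subjective dawn (CT24, 3) and subjective dusk (CT36, 3). Clock neurons of per01 flies, which lack the repressor PERIOD and are labelled per01/Y, were collected in DD at CT24 and CT36 (4 libraries each). Non-clock cells came from wild type in LD (4), wild type in DD (3) and per01 in DD (4), and their labels give no time. The sources differ on how long darkness had lasted before collection, and the methods describe wild-type brains of both sexes. The sorted non-clock cells were a mixture of all other brain cells, so a level here is an average over many cell types, and fewer cells with an open site cannot be told apart from a less open site in each cell.

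Homeobox genes encode transcription factors that bind DNA through a homeodomain, most often at sites with the core letters TAAT. Combinations of them fix the identity of neurons during development, and many stay active in the adult brain, where they hold a cell type's wiring, transmitter and receptor genes in place. Hox genes pattern the body axis and are best known from the trunk and the ventral nerve cord, whereas LIM, POU, paired-like and sine oculis class genes distinguish neurons of the central brain and the eye.

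The sequences on which the main results rest are given here as 151 bases around the summit of a region, from the dm6 reference (RefSeq Release 6) on the plus strand. Capitals mark the core TAAT, the palindrome TAATTA that pairs this core on opposite strands, the CLOCK/CYCLE E-box CACGTG, and TTATGTAA or TTACGTAA (boxes bound by VRI and PDP1), searched on both strands, so that ATTA counts as a TAAT. The *B-H1* and *scro* windows lie just upstream of genes that were higher and lower in clock neurons, the *nub* window is an intronic region higher in clock neurons, the *hth* window was higher in DD, and the *ct* and *pb* windows were lower in per01.
*B-H1* upstream region (chrX:17397181-17397331): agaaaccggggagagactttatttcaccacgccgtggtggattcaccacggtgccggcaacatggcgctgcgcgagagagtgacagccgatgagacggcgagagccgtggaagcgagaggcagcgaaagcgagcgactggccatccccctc
*scro* upstream region (chr3L:24723851-24724001): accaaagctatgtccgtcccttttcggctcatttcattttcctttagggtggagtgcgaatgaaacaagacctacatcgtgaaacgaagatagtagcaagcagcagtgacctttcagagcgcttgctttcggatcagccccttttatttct
*nub* intronic region (chr2L:12613177-12613327): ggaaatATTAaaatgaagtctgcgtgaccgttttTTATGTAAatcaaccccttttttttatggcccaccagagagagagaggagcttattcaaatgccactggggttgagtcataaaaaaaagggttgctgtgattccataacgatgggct
*hth* upstream region (chr3R:10639724-10639874): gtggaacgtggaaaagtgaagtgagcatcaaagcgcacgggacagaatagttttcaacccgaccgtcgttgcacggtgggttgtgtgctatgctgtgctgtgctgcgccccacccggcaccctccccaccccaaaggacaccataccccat
*ct* intronic region (chrX:7629481-7629631): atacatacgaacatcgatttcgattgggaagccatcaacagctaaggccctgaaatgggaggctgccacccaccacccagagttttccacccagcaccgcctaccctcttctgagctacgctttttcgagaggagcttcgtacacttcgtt
*pb* exonic region (chr3R:6708441-6708591): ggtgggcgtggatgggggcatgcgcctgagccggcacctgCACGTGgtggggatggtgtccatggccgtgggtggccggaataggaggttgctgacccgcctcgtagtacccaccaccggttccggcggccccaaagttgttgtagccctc
The *nub* window held a TTATGTAA and the *pb* window a CACGTG, while the *B-H1*, *scro*, *hth* and *ct* windows held none of the 5 motifs. The *hth* window also lies within the antisense gene asRNA:CR44018 and the *nub* window within the overlapping gene Ref2, and accessibility has no strand, so it cannot be assigned to either gene. The *pb* window lies in an exon of that gene.

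The peak files gave 16504 to 25793 peaks a library. The total number of tags of a library, recovered from its genome-wide background, was 4.18 to 17.0 M (mega) tags in clock neurons (median 9.57) and 16.7 to 36.2 M tags in non-clock cells (median 23.8), so non-clock libraries were deeper, and weak peaks were compared above a floor common to the libraries of each comparison. Of the clock markers *Clk*, *tim*, *per*, *vri*, *Pdp1*, *Dh31*, *CCHa1*, *Pdf* and *cry*, 8 of 9 tested were higher in clock neurons in LD, 7 of 8 in DD and 8 of 8 in per01. Their summed level was 399 to 524 counts-per-million (CPM) in LD clock neurons and 251 to 286 CPM in LD non-clock cells. Glial markers summed to 44.4 to 71.7 CPM in LD clock neurons and 54.6 to 61.6 CPM in LD non-clock cells, but to 54.1 to 70.1 against 70.3 to 106 CPM in DD and 52.9 to 63.0 against 83.7 to 97.3 CPM in per01. They were *repo*, *moody*, *alrm*, *Gs2*, *Eaat1*, *wrapper*, *Indy*, *gcm* and *nrv2*, which alone held 26.4 to 34.6 CPM in LD non-clock cells. Of those tested, 2 were higher and 3 lower of 6 in LD, 1 and 4 of 6 in DD, and 2 and 5 of 7 in per01. Of 6 neuron markers, none was called different in LD, 2 were higher in DD and 2 lower in per01. Of 6 genes listed as markers of mushroom body Kenyon cells, 4 were higher in clock neurons in LD, 6 in DD and 3 in per01. They were *Mef2*, *Fas2*, *rut*, *Pka-C1*, *sNPF* and *prt*, and the study also counts *sNPF* among clock neuron neuropeptides. Of the hemocyte markers tested, 1 of 1 was higher in LD, and 1 was higher and 1 lower in DD and in per01. Of 7 photoreceptor markers, *ninaE*, *Pph13*, *chp*, *Rh3* and *Rh6* held no peak in any library, while *gl* had 14.7 to 27.7 CPM in LD clock neurons and 0 in LD non-clock cells, and *trp* was not called different. The listed genes need not be particular to a single cell type, and the part of other cell types in the results below was not tested.

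Homeobox genes were more accessible in clock neurons than in non-clock cells. Each gene's value was the sum of scaled tags at its peak summits, in CPM, compared with limma on log2(CPM + 1) over all genes with Benjamini-Hochberg adjustment and a threshold of 0.1. In LD, 31 of 49 genes tested were higher and 4 lower, against a background of 18.6% of all genes tested higher and 10.6% lower. In DD 26 of 50 were higher and 2 lower (background 16.6% and 24.4%), and in per01 25 of 49 were higher and 3 lower (background 14.1% and 14.3%). The median log2 difference was 0.40 in LD, 0.27 in DD and 0.22 in per01, where the median of all genes tested was 0.00, -0.12 and -0.07. The sizes were moderate: the ratio of means for the genes that were higher ran from 1.17 to 6.53 in LD (median 1.45), from 1.18 to 2.44 in DD (median 1.37) and from 1.10 to 6.28 in per01 (median 1.44). The highest ratios come from genes with non-clock peaks near the floor.

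**Figure D1:**
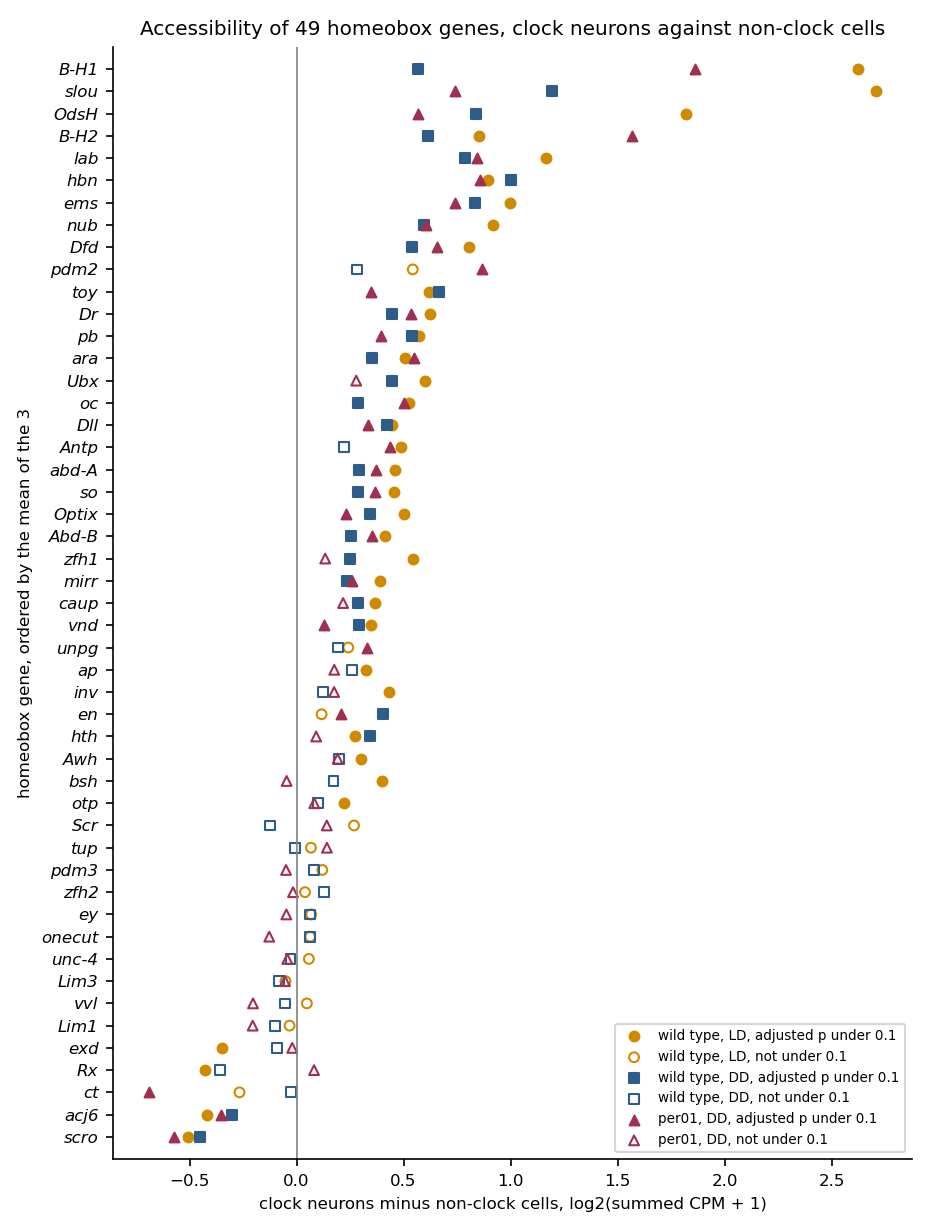
Difference between clock neurons and non-clock cells in log2(summed CPM + 1) for 49 homeobox genes (vertical axis, ordered by the mean of the 3 comparisons). Circles are wild type in LD, squares wild type in DD and triangles per01 in DD, and filled symbols passed an adjusted p of 0.1. Of these genes 33 lay to the right of 0 in all 3 comparisons and 6 to the left. *B-H1* and *slou* lie farthest right in LD because non-clock peaks under the floor count as 0.

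Of the 49 genes tested in all 3 comparisons, 21 were higher each time (background 8.27% of all genes): *Abd-B*, *B-H1*, *B-H2*, *Dfd*, *Dll*, *Dr*, *OdsH*, *Optix*, *abd-A*, *ara*, *ems*, *hbn*, *lab*, *mirr*, *nub*, *oc*, *pb*, *slou*, *so*, *toy* and *vnd*. *acj6* and *scro* were lower in all 3 (background 4.04%). The 3 comparisons share no library, but they were made in 1 study with the same sort. A second list of 44 homeobox genes outside the members, of which 32 held a peak, showed the same shift, with 18 of 31 higher and 2 lower in LD, 15 and 4 of 31 in DD and 15 and 1 of 30 in per01, and medians of 0.35, 0.29 and 0.23. The shift was shared by these other homeobox genes.

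Hox genes, which assign identity along the body axis, were mostly higher. Of the 8, 7 were higher in LD and 6 in both DD and per01, and the others were not called, with median differences of 0.53, 0.37 and 0.38. *Dfd*, known for the posterior head segments, had sums of 15.4 to 24.9 CPM in LD clock neurons (median 22.4) and 10.1 to 13.6 CPM in LD non-clock cells. These LD ranges do not overlap, and the LD difference was 0.81 ± 0.123 (SE, limma adjusted p = 0.000384). In per01 the *Dfd* ranges overlapped, at 19.7 to 29.6 CPM in clock neurons and 11.5 to 21.0 CPM in non-clock cells. *Abd-B*, which specifies the most posterior segments, had 11 regions and summed to 81.1 to 105 CPM against 61.0 to 79.1 CPM in LD, a difference of 0.42 ± 0.0777 (limma adjusted p = 0.00171). Its ranges overlapped in DD, at 90.3 to 111 against 73.4 to 94.7 CPM. The exception in LD was *Scr*, a gene of the labial and first thoracic segments, whose differences of 0.27, -0.12 and 0.14 had limma adjusted p values of 0.344 in LD, 0.523 in DD and 0.545 in per01.

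In the PAX and sine oculis classes, whose members *ey*, *toy*, *so* and *Optix* act in the eye and brain, 3 of 4 were higher in each comparison. *toy*, a Pax6 gene upstream of *ey*, summed to 26.6 to 38.0 CPM in LD clock neurons and 18.9 to 20.6 CPM in LD non-clock cells, and the groups did not overlap in DD either (31.7 to 40.6 against 21.4 to 21.8 CPM). Its differences were 0.62, 0.67 and 0.35. *ey*, the other Pax6 gene, did not pass the test in any of the 3, with differences of 0.07, 0.06 and -0.05 and limma adjusted p values of 0.496, 0.469 and 0.656.

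Among TALE genes, the Iroquois genes *ara* and *mirr* were higher in all 3 comparisons and *caup* in both wild-type comparisons, with 4 of 5 members higher in LD and DD and 2 of 5 in per01. *exd*, which encodes a partner of Hox proteins, was lower in LD at -0.35 ± 0.104 (limma adjusted p = 0.0281). Its values in DD and per01 were -0.09 and -0.02. Of the 5 LIM genes, *ap* and *Awh* were higher in LD, and 0 passed the limma test in DD (0 at an unadjusted p under 0.05) or in per01 (1 at an unadjusted p under 0.05). Of the zinc finger homeodomain genes *zfh1* was higher in LD and DD. The cut genes *ct* and *onecut* were called higher in none of the comparisons, and *ct* was lower in per01 at -0.69 (limma adjusted p = 3.45e-05).

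The 5 POU genes, which pair a POU-specific domain with the homeodomain, went different ways. *nub* was higher and *acj6* lower in all 3 comparisons, *pdm2* was higher in per01, and *vvl* and *pdm3* did not pass the test. *pdm2*, the neighbour and paralogue of *nub*, summed to 10.4 to 17.2 CPM in LD clock neurons, and in LD non-clock cells to 4.79, 6.42 and 20.1 CPM as the lowest, median and highest value. The highest non-clock library lay above every clock library in LD and again in DD, where it reached 21.4 CPM against 10.8 to 16.5 CPM.

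**Figure D2:**
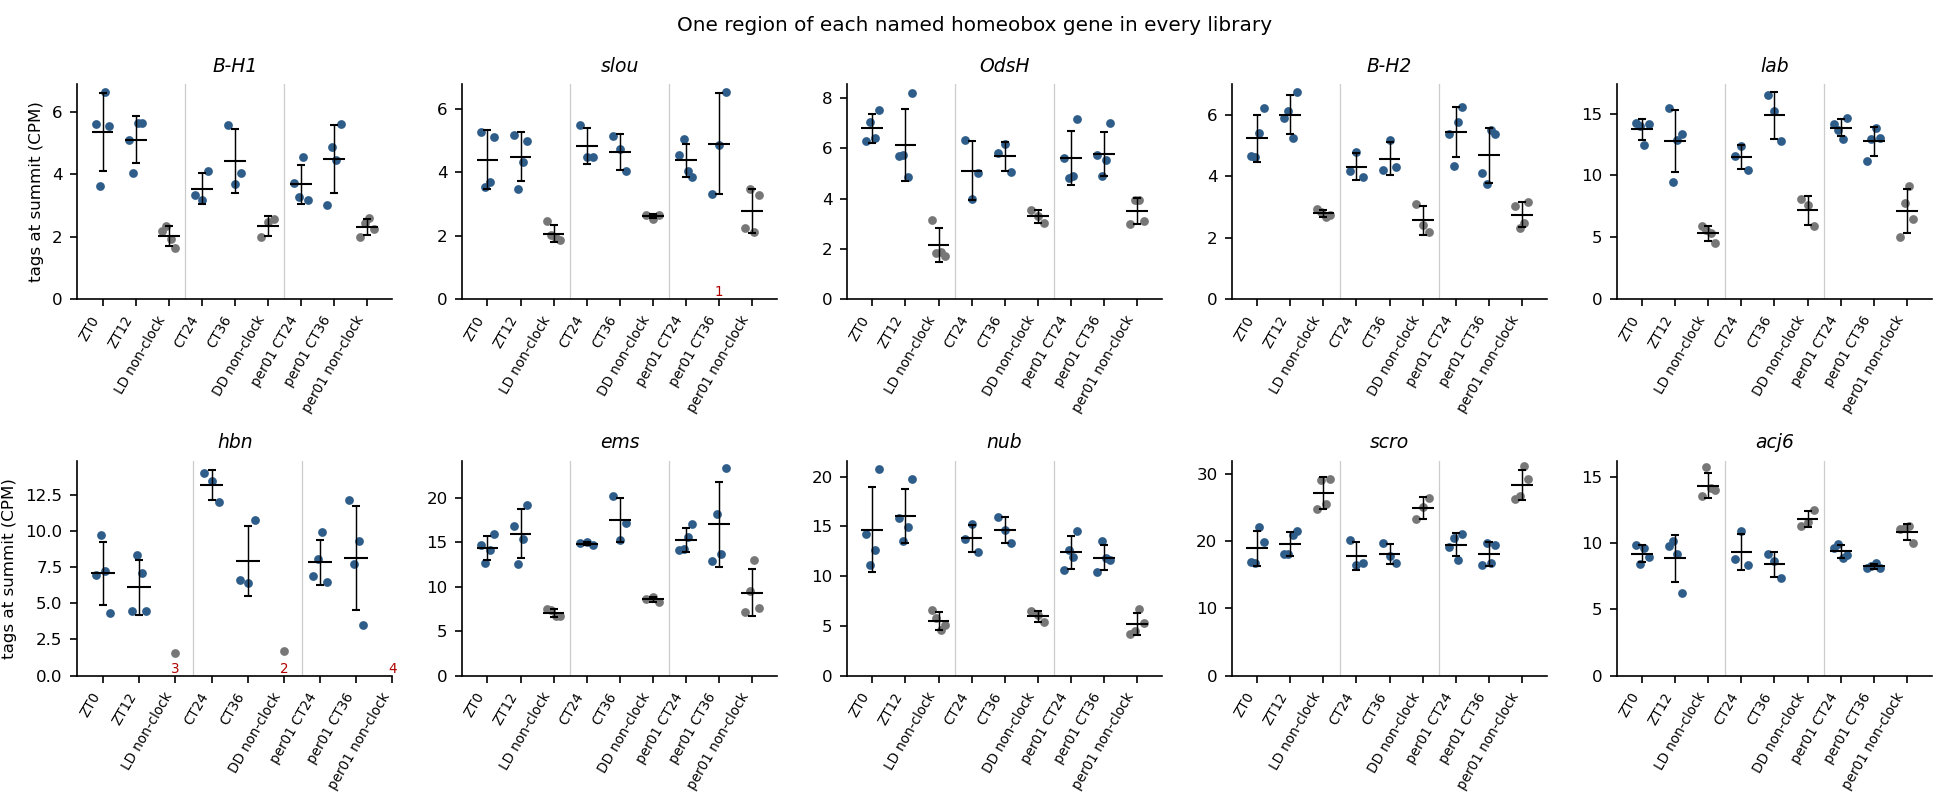
Tags at the summit of 1 region in each of 10 homeobox genes, the 8 with the highest mean difference among those higher in all 3 comparisons and the 2 lower in all 3, in CPM (vertical axes from 0), for the 9 groups of libraries (horizontal axis). Points are libraries, blue for clock neurons and grey for non-clock cells, lines with bars are mean ± SD of the libraries with a peak, and red digits count libraries without a peak. The regions were picked for passing in the gene's direction in all 3 comparisons. Clock neurons lie above non-clock cells in the first 8 genes, except for overlaps within per01 at *slou* and *ems*, and below them in *scro* and *acj6*.

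For each of 10 genes the region with the largest difference is described, among those past the threshold in the gene's direction in all 3 comparisons. The regions were picked by this rule, so their direction adds no support to the gene result. *B-H1* and *B-H2* encode Bar proteins that act in photoreceptor and sense organ fates. The *B-H1* region at chrX:17397134-17397414, 222 bp upstream of a start, was called in all 33 libraries. It held 3.62 to 6.62 CPM in LD clock neurons (median 5.59) and 1.62 to 2.33 CPM in LD non-clock cells, and no clock library overlapped the non-clock range. The log2 difference was 1.07 ± 0.147 in LD (limma adjusted p = 0.000214), 0.73 in DD and 0.62 in per01. A level below the floor of the comparison (2.41 CPM in LD, 1.94 in DD and 2.57 in per01) was raised to it, here for 4 of 4 non-clock libraries in LD and 3 of 4 in per01, and with each library's own values the differences were 1.33 and 0.77. The *B-H2* region at chrX:17313450-17313750, 987 bp upstream, held 4.62 to 6.76 CPM against 2.66 to 2.94 CPM in LD, with differences of 0.98, 0.78 and 0.81 in the 3 comparisons.

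*lab*, the most anterior Hox gene, needed for the tritocerebrum of the embryonic brain, had a single region at chr3R:6678537-6678819, 74 bp upstream of its start. Clock neurons held 9.45 to 15.4 CPM in LD, 10.5 to 16.5 in DD and 11.1 to 14.7 in per01. Non-clock cells held 4.49 to 5.88, 5.87 to 8.09 and 5.00 to 9.16 CPM, so the groups stayed apart in each comparison. The differences were 1.30 ± 0.117, 0.86 ± 0.157 and 0.93 ± 0.132 (limma adjusted p = 7.97e-06, 0.00296 and 0.000232). *ems*, a head gap gene that also acts in olfactory neurons, behaved alike at chr3R:13901502-13901873, with 12.6 to 19.2 CPM against 6.65 to 7.50 CPM in LD and differences of 1.09, 0.90 and 0.80. In per01 the highest *ems* non-clock library (13.1 CPM) passed the lowest clock library (12.9 CPM).

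*nub*, known from wing and neuroblast development, was higher at 2 sites. The region at chr2L:12593723-12594683, in an exon, held 11.2 to 20.8 CPM in LD clock neurons (median 14.6) and 4.53 to 6.56 CPM in LD non-clock cells. Its difference was 1.46 ± 0.165 in LD, 1.24 ± 0.0895 in DD and 1.23 ± 0.123 in per01 (limma adjusted p = 4.77e-05, 1.37e-05 and 1.38e-05). The intronic *nub* region whose window with the TTATGTAA is printed above was lower in level, with 3.56 to 5.47 CPM in LD clock neurons, and was called in 22 of 22 clock and 8 of 11 non-clock libraries. It differed by 0.83, 0.91 and 0.46, with limma adjusted p values of 0.000114, 0.000623 and 0.0228.

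*hbn*, a paired-like gene of the embryonic and adult brain, had a region called far more often in clock neurons. The intronic region at chr2R:20956133-20956951 was called in 22 of 22 clock and 2 of 11 non-clock libraries. It reached 4.36 to 9.75 CPM in LD clock neurons and 6.44 to 14.1 CPM in DD clock neurons, and the 2 non-clock libraries with a peak held 1.54 and 1.72 CPM. Where non-clock libraries had no peak the floor stood in for their value, and the fitted difference was 1.36 in LD, 2.33 in DD and 1.54 in per01 (limma adjusted p = 0.000664, 0.000244 and 0.000876). With summits instead of overlapping peaks joined into regions, the LD and DD values were 0.95 and 1.61 and no longer passed (limma adjusted p = 0.132 and 0.143).

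*slou*, an NK-class gene of muscle founder cells, and *OdsH*, a paralogue of *unc-4* that evolves fast, were also higher. The *slou* region at chr3R:21556973-21557463, 155 bp upstream, held 3.47 to 5.26 CPM against 1.87 to 2.45 CPM in LD. It differed by 0.83 in LD, 0.83 in DD and 0.50 in per01, where the limma adjusted p was 0.0997. Leaving out 1 library ended the *slou* call in per01 for 10 of the 12 libraries, with limma adjusted p values of 0.116 to 0.245. The floor also stood in for 3 of the 4 LD non-clock values at both *slou* and *OdsH*, whose LD differences were 1.07 and 1.59 with each library's own values. The *OdsH* region at chrX:17802421-17802796, in an intron, held 4.88 to 8.21 CPM against 1.71 to 3.15 CPM in LD, with differences of 1.28, 0.69 and 0.68.

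*scro* and *acj6* went the other way in all 3 comparisons. *scro*, an NK2 gene of the brain and optic lobe, was lower at the region 236 bp upstream of its start (chr3L:24723551-24724455). Clock neurons held 16.7 to 22.0 CPM in LD, 16.4 to 20.2 in DD and 16.4 to 21.0 in per01, against 24.7 to 29.1, 23.2 to 26.4 and 26.2 to 31.1 CPM in non-clock cells. The ranges were apart each time, and the differences were -0.50 ± 0.0863, -0.47 ± 0.0790 and -0.59 ± 0.0764 (limma adjusted p = 0.00111, 0.00189 and 0.000111). *acj6*, which sets olfactory receptor choice and the targeting of olfactory neurons, was lower at an intronic region (chrX:15355491-15357071), with 6.28 to 10.2 CPM against 13.6 to 15.8 CPM in LD and differences of -0.68, -0.42 and -0.30. Measured by its highest summit alone rather than by the sum, *acj6* had a difference of -0.15 in LD and 0.02 in DD, with no call in either.

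At the level of regions, 77 of the 170 tested in LD were higher in clock neurons and 19 lower (background 19.8% and 18.9%). In DD 69 of 173 were higher and 26 lower (19.0% and 23.5%), and in per01 56 of 157 were higher and 26 lower (16.1% and 19.5%). Across the 3 comparisons 46 of 151 regions were higher each time and 7 lower each time, against 11.4% and 9.58% of all regions. The counts leaned higher on the autosomes and not on X, a difference that was not tested. Of autosomal regions 66 of 129 were higher and 7 lower in LD, while of the 41 regions on X, 11 were higher and 12 lower. The shares called among all X regions and all autosomal regions were not counted for these comparisons. The median log2 difference in LD was 0.30 for autosomal homeobox regions and 0.03 for all autosomal regions. On X it was 0.00 for homeobox regions and 0.00 for all regions. Homeobox regions were strong regions, so they were also set against regions of like level in 5 groups of equal size, the highest of which held 70 of the 170. In the middle group, 79.2% of homeobox regions and 36.6% of all regions were higher in LD. In the next group the shares were 61.3% and 25.1%, and in the highest group 45.7% and 13.5%. In the second group from the bottom they were 38.9% and 21.0% in LD, and 27.8% and 21.1% in DD. The weakest regions did not show this: in the lowest group 0 of 27 homeobox regions were higher in LD by limma (0 at an unadjusted p under 0.05; 2.95% of all regions) and 8 were lower (14.0% of all). The median level of that group in LD, 0.865 CPM, lay under the floor of 2.41 CPM, which limits calls there. In DD the lowest group held 0 of 29 higher by limma (0 at an unadjusted p under 0.05) and 14 lower, against 2.10% and 31.0% of all. In per01 the second group held 5.26% higher against 17.7% of all.

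**Figure D3:**
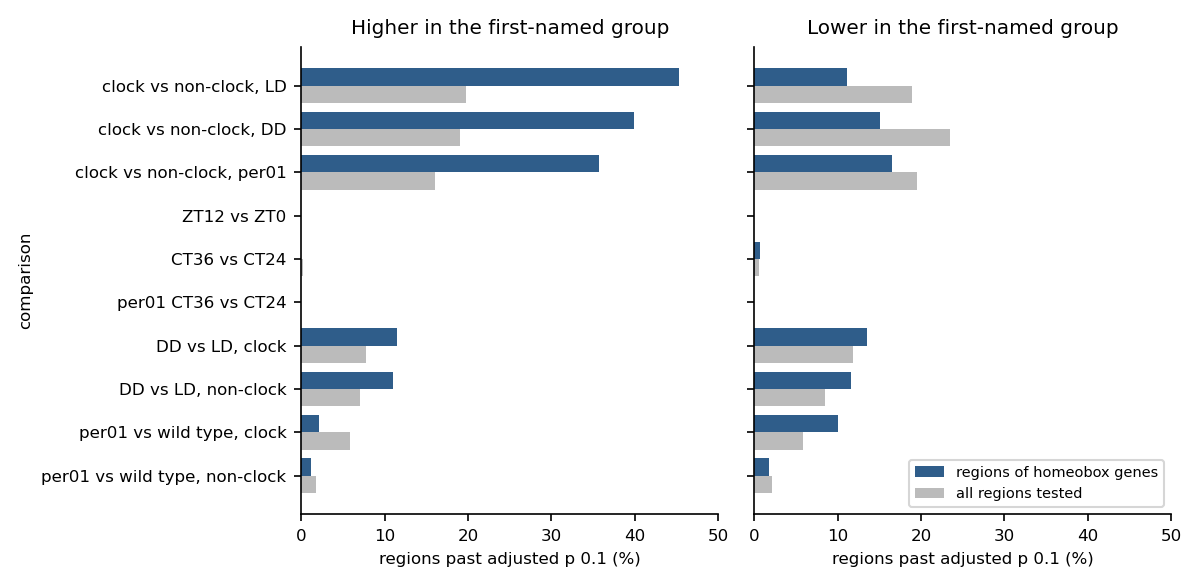
Percentage of regions past a limma adjusted p of 0.1 (horizontal axes) in 10 comparisons (vertical axis), higher on the left and lower on the right. Blue bars are regions of homeobox genes and grey bars all regions tested. The blue bars pass the grey ones most clearly for clock neurons above non-clock cells, at 45.3% against 19.8% in LD, and both are at or near 0 for the 3 comparisons of time.

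Large genes held sites that went opposite ways. *pdm3*, a POU gene of olfactory receptor expression and axon targeting, held 22 regions in a gene of 68791 bp. Its sum was 94.2 to 118 CPM in LD clock neurons and 89.1 to 105 CPM in LD non-clock cells, and the differences of 0.12, 0.08 and -0.05 did not pass (limma adjusted p = 0.205, 0.246 and 0.627). Single sites went in both directions. In LD 6 of its 13 tested regions were higher and 3 lower, in DD 5 and 2 of 16, and in per01 4 and 3 of 14. Of all regions tested, 19.8% were higher and 18.9% lower in LD, 19.0% and 23.5% in DD, and 16.1% and 19.5% in per01. The counts of lower *pdm3* regions lay near or below these shares.

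Near the outer start of *pdm3*, the intronic region at chr2R:8335925-8336864 held 12.1 to 23.0 CPM in LD clock neurons and 8.28 to 10.4 CPM in LD non-clock cells. It differed by 0.81, 0.79 and 0.72 (limma adjusted p = 0.00118, 6.22e-06 and 0.00195). The region at chr2R:8344741-8345480, whose window holds a TAATTA, differed by 0.87, 1.13 and 0.80, with 3.31 to 5.89 CPM against 2.07 to 2.52 CPM in LD. Its neighbour at chr2R:8344420-8344582 was called in 19 of 22 clock libraries and in 0 of 11 non-clock libraries, at 2.50 to 4.99 CPM where called.

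Farther into *pdm3*, the region at chr2R:8378967-8379438 showed the reverse. It was called in 11 of 11 non-clock libraries, at 5.54 to 6.84 CPM in LD, 5.90 to 6.51 in DD and 6.57 to 7.26 in per01, and in 1 of 22 clock libraries, a ZT12 library at 3.88 CPM. The difference of -1.24, -1.61 and -1.39 was counted from the floor of the clock libraries. In DD and per01, 0 of 6 and 0 of 8 clock libraries held a peak, so the floor stood in for all of them. The spread among clock libraries was not measured there, and the p values of this region are not given as support. The region at chr2R:8381242-8381769 was likewise called in 11 non-clock libraries and 1 clock library.

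**Figure D4:**
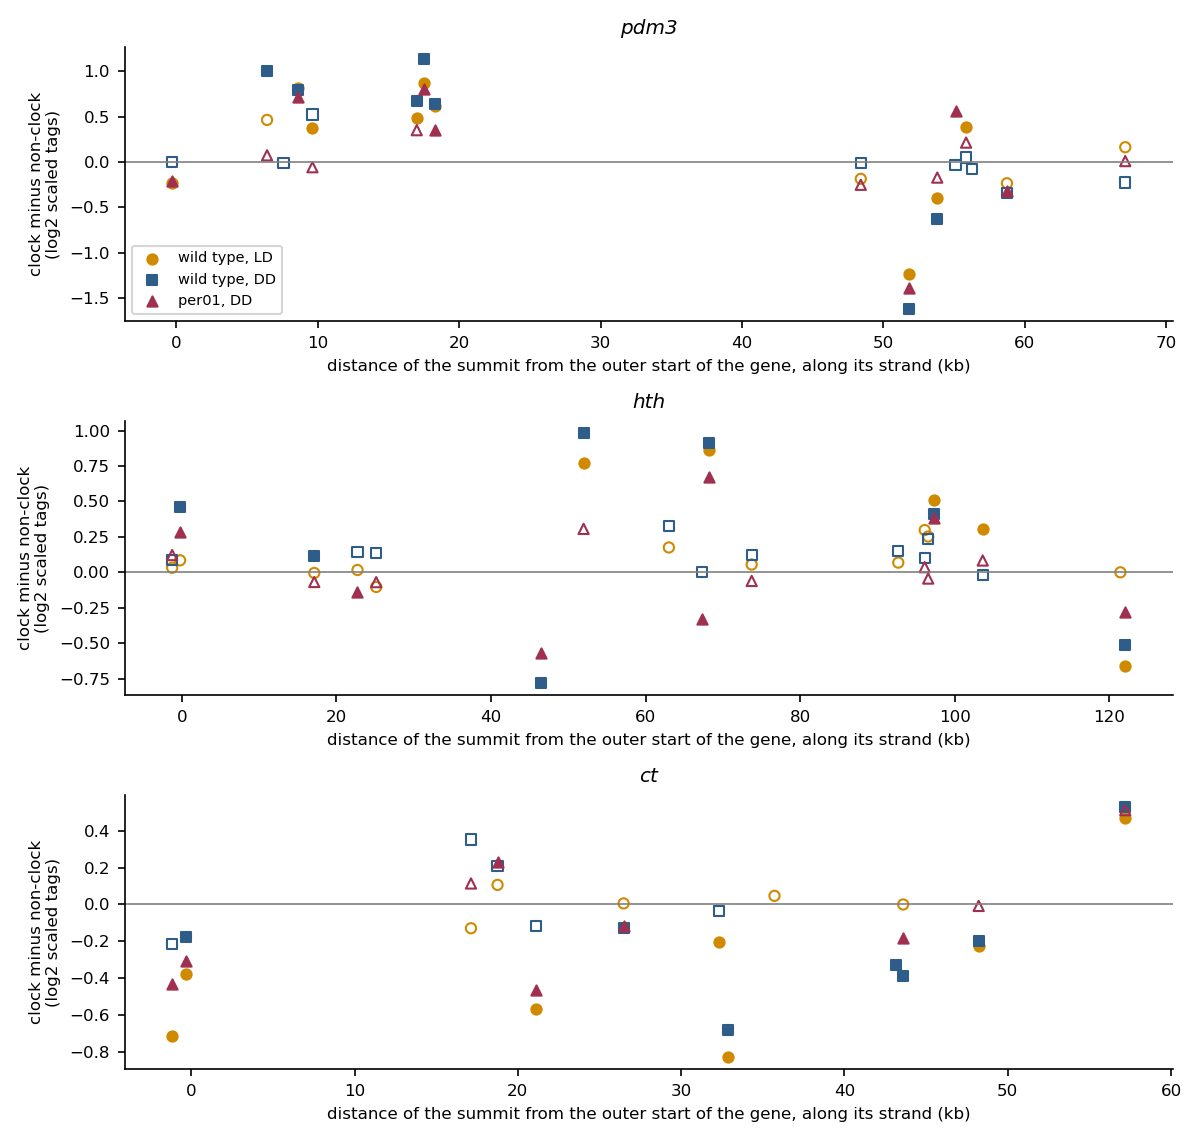
Difference between clock neurons and non-clock cells in log2 scaled tags (vertical axes) for each tested region of *pdm3*, *hth* and *ct*, by the distance of its summit from the outer start of the gene along its strand in kb (horizontal axes). Colours and shapes are the 3 comparisons, and filled symbols passed an adjusted p of 0.1. In *pdm3* the region at -1.24, -1.61 and -1.39 lies far below the regions near the start described above, at 0.72 to 1.13.

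*hth*, which encodes a cofactor that takes EXD into the nucleus, held 24 regions in a gene of 132008 bp. Its sum was higher in LD and DD at 0.27 and 0.34 and was 0.09 in per01, without a call (limma adjusted p = 0.378). The intronic region at chr3R:10571220-10571587 held 3.37 to 6.60 CPM in LD clock neurons and at most 1.85 CPM in LD non-clock cells, with differences of 0.86, 0.91 and 0.67. The region at chr3R:10517325-10517972 was called in 11 of 11 non-clock libraries, at 2.51 to 4.37 CPM, and in 0 of 22 clock libraries. *ct*, which directs sense organ fate and dendrite shape, leaned lower, with 1 region higher and 6 lower of 12 in LD, the same counts in DD and 1 and 5 of 9 in per01. The shares lower over all regions were 18.9%, 23.5% and 19.5%. Its region at chrX:7641040-7641516 was called in 10 non-clock libraries and in no clock library.

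Counted over all homeobox regions, 3 of 230 were called in 11 or more clock libraries and in no non-clock library, against 3.24% of all regions. These were the *pdm3* region above and intronic regions of *Antp* (chr3R:6981956-6982148, 15 clock libraries) and *hth* (chr3R:10576376-10576734, 14 clock libraries). The reverse, 6 or more non-clock libraries and no clock library, held for 12 of 230 or 5.22%, against 4.48% of all regions. Non-clock libraries were deeper, and the part of depth in these counts was not tested.

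Between dawn and dusk, 1 homeobox region passed the test over the 3 comparisons. From ZT0 to ZT12, 0 of 152 regions passed (background 0.0257%), and 4 had an unadjusted limma p under 0.05, or 2.63% against 5.75% of all regions. The smallest p values were those of *Rx*, a retinal and brain homeobox gene, and *otp*, a gene of neuroendocrine brain development. The *Rx* promoter region held 8.58 to 11.3 CPM at ZT0 and 6.92 to 8.65 CPM at ZT12, a difference of -0.31 ± 0.118 (limma adjusted p = 0.840). The lowest ZT0 library lay within the ZT12 range.

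From CT24 to CT36, 1 of 145 regions passed (background 0.739%), and 20 had an unadjusted limma p under 0.05, or 13.8% against 10.7% of all regions. The region that passed was a *ct* region 1167 bp upstream of the gene start (chrX:7606898-7607618), with 14.2, 15.1 and 12.9 CPM at CT24 and 9.58, 8.77 and 10.9 CPM at CT36. The groups did not overlap, and the difference was -0.53 ± 0.113 (limma adjusted p = 0.0872). The call was lost without any of 5 of the 6 libraries (limma adjusted p from 0.179 to 0.428). Without CT36 replicate 3 the number of regions called was 6, and without any of CT24 replicates 1 and 2 and CT36 replicates 1 and 2 it was 0. In LD the same region differed by -0.06 between the times and in per01 by 0.07. The 11 *pdm3* regions tested between CT24 and CT36 differed by -0.34 to 0.56, and the smallest limma adjusted p among them was 0.366. The study counted read ends over whole peaks and called more peaks between the times, in LD and in DD, at the same threshold. It reported *pdm3* as more accessible at subjective dawn, with a stronger signal of its intron RNA in DN1 clock neurons. A region without a call here is not thereby shown to be steady.

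The *hbn* region described above held 14.1, 13.5 and 12.0 CPM at CT24 and 6.62, 6.44 and 10.8 CPM at CT36. All CT24 libraries were above all CT36 libraries, yet the difference of -0.77 ± 0.174 did not pass over all regions (limma adjusted p = 0.109). In per01, 6.48 to 9.98 CPM at CT24 and 3.50 to 12.1 CPM at CT36 overlapped, with a difference of -0.06. In per01, 0 of 134 regions passed between the times (background 0% of 16841 regions), and 3 had an unadjusted limma p under 0.05. No homeobox region passed in the limma test of the change in time effect between LD and DD (0 of 162, 7 at an unadjusted p under 0.05) or between wild type and per01 in DD (0 of 151, 8 at an unadjusted p under 0.05).

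Between DD and LD, homeobox genes divided by chromosome. In clock neurons 17 of 148 regions were higher in DD and 20 lower (background 7.83% and 11.8%), and in non-clock cells 19 of 172 were higher and 20 lower (7.11% and 8.51%). Of the regions on X, 16 of 29 were lower in clock neurons and 0 higher by limma (0 at an unadjusted p under 0.05), against 46.3% lower and 3.57% higher among all X regions. On the other chromosomes 17 of 119 were higher and 4 lower, against 8.74% and 4.37%. Non-clock cells showed the same split, with 20 of 39 lower and 1 higher on X (35.2% and 5.22% of all X regions) and 18 of 133 higher and 0 lower elsewhere (7.53% and 2.56%; 6 lower at an unadjusted limma p under 0.05).

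The X chromosome as a whole moved the same way. The log2 level of X regions relative to autosomal regions, over 1488 X regions and 7551 autosomal regions called in all 33 libraries, was above 0 in all LD libraries (0.07 to 0.36) and below 0 in all DD libraries (-0.19 to -0.05), clock and non-clock alike. The labels of these wild-type libraries do not give the sex of the flies, so for regions on X a difference in sex ratio between the LD and DD collections cannot be told apart from the light regime. With X scaled on its own, an alternative added after the data were seen, homeobox regions on X counted 2 higher and 1 lower in clock neurons and 2 higher and 5 lower in non-clock cells. Autosomal counts were then 10 and 4 in clock neurons and 6 and 0 in non-clock cells. Scaled by total tags, the counts over all chromosomes were 24 higher and 11 lower in clock neurons and 12 and 22 in non-clock cells, and with X scaled apart 12 and 5 and 8 and 5, so the balance of directions depended on the scaling. The count in non-clock cells also rested on single libraries: it was 73 without LD non-clock replicate 1, 23 without LD non-clock replicate 3, 19 without DD non-clock replicate 1 and 7 without DD non-clock replicate 2.

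The region with the smallest p between regimes was autosomal. At the *hth* start (chr3R:10638775-10640200, 231 bp upstream) clock neurons held 23.6 to 27.5 CPM in LD (8 libraries) and 29.8 to 36.4 CPM in DD (6 libraries), and no library overlapped. Non-clock cells held 22.2, 24.6, 25.3 and 23.4 CPM in LD and 22.8, 23.5 and 26.1 CPM in DD, with wide overlap. The difference between regimes was 0.39 ± 0.0520 in clock neurons (limma adjusted p = 0.000276) and 0.02 ± 0.0738 in non-clock cells (limma adjusted p = 0.911). The test of the clock-minus-non-clock difference between regimes gave 0.37 ± 0.0759 (limma adjusted p = 0.0172). In per01 clock neurons in DD the same region held 30.6 to 38.0 CPM, which overlapped wild type in DD and reached above it.

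**Figure D5:**
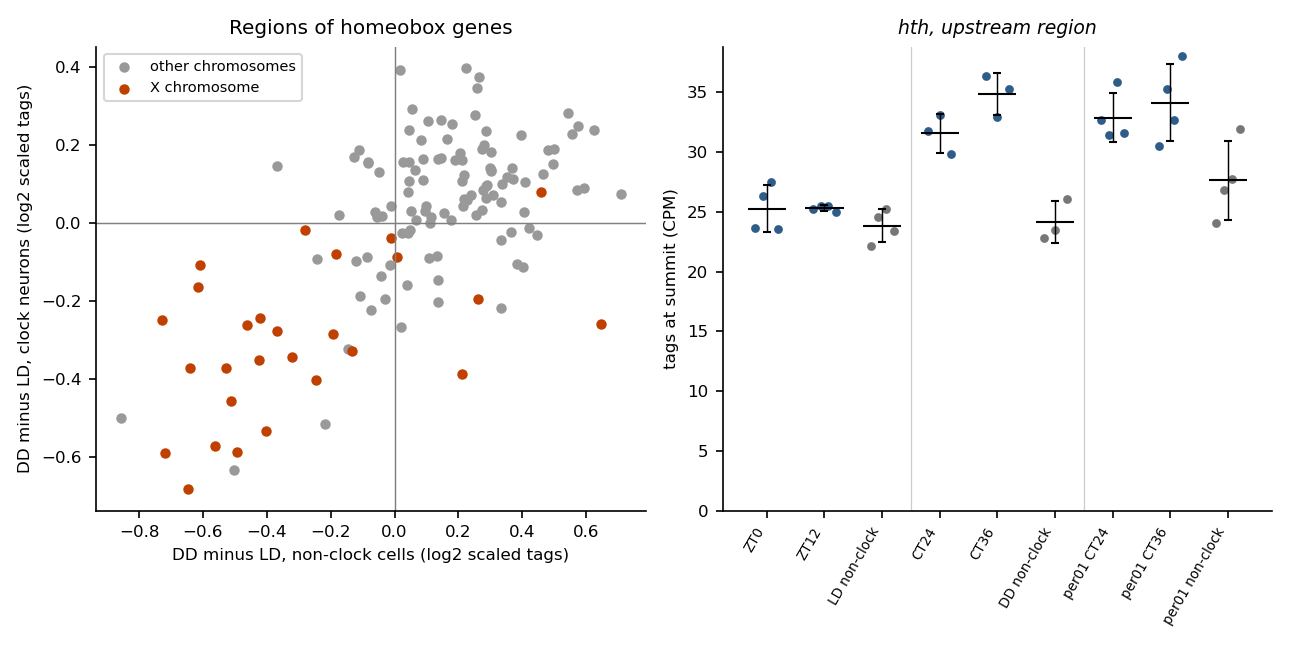
Left, difference between DD and LD in log2 scaled tags for homeobox regions tested in both cell groups, non-clock cells on the horizontal and clock neurons on the vertical axis, with regions on X in orange. Right, tags at the summit of the *hth* upstream region in CPM by group, with points for libraries and lines for mean ± SD. Most regions on X lie at lower left, and DD clock neurons lie above LD clock neurons at *hth*, 29.8 to 36.4 against 23.6 to 27.5 CPM.

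Of the other regions named for the change between regimes in clock neurons, those of *oc* and *exd* and a *Lim1* region were promoter regions on X. *oc*, a head and photoreceptor gene, held 24.2 to 30.6 CPM in LD and 20.4 to 22.9 CPM in DD, a difference of -0.34 (limma adjusted p = 0.000595). *exd* held 9.93 to 14.7 CPM in LD and 6.98 to 8.75 CPM in DD, a difference of -0.57 there and -0.56 among non-clock cells (limma adjusted p = 0.00156 and 0.0108). *Lim1* differed by -0.35 at its promoter region. With X scaled apart the *oc* and *Lim1* values were -0.06 and -0.07, with no call, and *exd* kept its call. On an autosome, *Dll*, the limb gene, held 16.7 to 25.1 CPM in LD and 25.2 to 28.5 CPM in DD, a difference of 0.37 (limma adjusted p = 0.00456).

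In non-clock cells an intronic *hth* region (chr3R:10592901-10593420) was called in 1 of 4 LD libraries, at 1.95 CPM, and in 3 of 3 DD libraries, at 2.85, 4.49 and 3.02 CPM. It was also called in 4 of 4 per01 non-clock libraries and in no clock library, and its difference of 1.13 ± 0.200 passed (limma adjusted p = 0.0128). In the test of the clock-minus-non-clock difference between DD and LD, 6 of 192 homeobox regions passed (background 2.57%). Between per01 and wild type in DD 1 of 184 passed (background 0.997%), a *Dll* region.

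Between per01 and wild type in DD, clock neurons differed at 17 of 140 homeobox regions, 3 higher and 14 lower in per01 (background 5.91% and 5.90%). Scaled by total tags the counts were 8 higher and 5 lower, so the balance of directions depended on the scaling. Without CT24 replicate 1, CT36 replicate 1, CT24 replicate 2 or CT36 replicate 3 of the wild type the count was 10, 9, 7 or 10. The per01 allele cannot be told apart from the X chromosome and background of its strain, nor from the sex of the flies.

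The smallest p was in *ct*. Its intronic region at chrX:7629168-7630516 held 13.4, 14.0 and 13.8 CPM at CT24 and 12.3, 10.4 and 12.8 CPM at CT36 in wild type. In per01 it held 7.51, 7.27, 8.06 and 7.84 CPM at CT24 and 7.50, 8.46, 7.68 and 9.33 CPM at CT36. All per01 libraries lay below all wild-type libraries, and the difference was -0.68 ± 0.0824 (limma adjusted p = 0.000121). In non-clock cells 13.7, 12.1 and 15.9 CPM in wild type and 10.8, 10.5, 10.2 and 12.6 CPM in per01 overlapped, with a difference of -0.33 ± 0.105 (limma adjusted p = 0.167).

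The *ct* sum followed. It was 65.0 to 96.5 CPM in wild-type clock neurons in DD and 49.0 to 60.1 CPM in per01 clock neurons, while non-clock cells held 81.5 to 91.7 CPM and 76.8 to 104 CPM. These sums leave out peaks under 1.94 CPM in wild type and under 2.57 CPM in per01, so they are not on the same footing between genotypes. The test of the change, given next, used a single floor for all its libraries. The difference between clock neurons and non-clock cells was -0.03 in wild type and -0.69 in per01, and the change between them, -0.75, passed the test of that change over all genes (limma adjusted p = 0.0396).

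*zfh2*, a zinc finger homeodomain gene, held 22.4 to 29.8 CPM at chr4:502639-503087 in wild-type clock neurons and 13.7 to 23.2 CPM in per01, a difference of -0.49 ± 0.106 (limma adjusted p = 0.0102). This window contains a CACGTG. The *pdm3* region at chr2R:8333722-8334019 was called in 6 of 6 wild-type clock libraries in DD, at 3.65 to 5.05 CPM, and in 1 of 8 per01 clock libraries, at 3.91 CPM, with a difference of -0.62 (limma adjusted p = 0.00372). The floor stood in for the per01 libraries without a peak, so their spread was not measured. A further *pdm3* region and a further *zfh2* region differed by -0.23 each.

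*pb*, a Hox gene of the mouthparts, held a region whose calls divided by genotype, while its other regions were called in all 33 libraries. Its exonic region at chr3R:6708314-6708646 was called in 20 of 21 wild-type libraries, clock and non-clock, and in 0 of 12 per01 libraries. Of all 36210 regions, 5 were called in 20 or more wild-type libraries and in no per01 library, and this region was chosen after its values were seen. It held 3.62 to 6.46 CPM in LD clock neurons and 2.68 to 5.13 CPM in DD clock neurons, and the fitted difference of -0.38 (limma adjusted p = 0.0421) is limited by the floor of the per01 libraries. With a stricter peak threshold the value was -0.13 and did not pass. The whole *pb* sum was 51.1 to 60.8 CPM in wild-type clock neurons in DD and 42.9 to 55.3 CPM in per01 clock neurons. The sums leave out peaks under 1.94 and 2.57 CPM, respectively, and so are not on the same footing.

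In non-clock cells 2 homeobox regions were higher and 3 lower in per01, of 170 tested (background 1.81% and 2.18%). An intronic *hth* region (chr3R:10572102-10572514) held 1.61, 1.93 and 1.68 CPM in wild type and 3.42, 3.27, 3.84 and 2.56 CPM in per01, a difference of 0.88 ± 0.162 (limma adjusted p = 0.0249). An *acj6* region (chrX:15363389-15363702) held 2.79, 2.48 and 2.64 CPM in wild type and was called in 2 of 4 per01 libraries, at 1.78 CPM each, a difference of -0.62 ± 0.105 (limma adjusted p = 0.0164). Regions of *Abd-B*, *toy* and *bsh* differed by -0.61, 0.72 and -0.28 with limma adjusted p values of 0.0609, 0.0639 and 0.0824. The count fell to 1 without DD non-clock replicate 1 and to 2 without per01 non-clock replicate 2, and it was 3 without DD non-clock replicate 2 or per01 non-clock replicate 3.

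The searched motifs were counted in windows of homeobox regions and of all regions, and the differences were not tested. Of the 230 windows of 151 bases, 44.3% held a TAAT and 2.17% a TAATTA, against 53.8% and 3.83% of all 36210 windows. CACGTG was in 2.61% of the homeobox windows and 3.63% of all, and TTATGTAA in 0.435% and 0.862%, the former being the *nub* window printed above. TTACGTAA was in none of the homeobox windows and in 0.177% of all. Of the 46 regions higher in clock neurons each time, 15 held a TAAT, 1 a TAATTA and 0 a CACGTG. A match is a description of these letters and not a bound site.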

How the data were processed

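Accessible chromatin of sorted clock neurons and non-clock cells was measured by ATAC-seq, and 33 peak lists were used, one for each library. Per the submitters' processing notes and the study's methods, the authors trimmed reads with cutadapt 4.1, aligned them to dm6 with Bowtie2 2.4.5, filtered them with SAMtools 1.15.1 and Picard 2.27.4, and called peaks in each library with MACS2 2.2.7.1 at a q of 0.001, with cut sites extended to 74 bp. The deposited files hold, for the summit of each peak, a score that was not used, a fold ratio over local background, and the −log10 p-value and −log10 q-value. A list holds nothing below its caller's threshold, so an absent peak means less than a detectable level and not zero.

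The number of tags at each summit was recovered from the deposited ratio and −log10 p-value, and all values came out whole within 0.02. The depth of each library was recovered from its genome-wide background, since the peak lists give no read totals. Peaks of all libraries that overlapped by 1 bp were merged with bedtools 2.31.1, tags were scaled by median-of-ratios size factors, and regions below a floor common to the libraries of a comparison, including those with no peak, took the value of that floor. For a test, the libraries with a peak in a region had to number no fewer than the smaller of the groups. Because these are reads at called summits and not a full count table, limma 3.58.1 (R 4.3.3) was fitted to log2(scaled tags + 1) over all regions, with Benjamini-Hochberg adjustment and a threshold of 0.1. Gene values were summed scaled CPM over peaks at or above the floor, as log2(CPM + 1). The added 1 understates changes of low genes. Peaks under the floor add nothing to a sum, which can overstate such changes, as for *B-H1* and *slou* in LD. Fits held only the groups compared, with time as a covariate in the comparisons of regime and genotype in clock neurons. Python 3.11.15, pandas 2.3.3, scipy 1.17.1 and matplotlib 3.10.9 were used for tables, tag recovery and plots. The scripts were tested on simulated data.

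The members, gene lists and tests were chosen with earlier results of these data known. Genes were named when past the threshold in the same direction in all 3 comparisons of cell type, the 8 highest and 8 lowest by mean difference. Each was given with its region of largest difference among those past the threshold in the gene's direction in all 3. For time, regime and genotype the regions past the threshold were named, or the 6 with the smallest p where more passed, or the 2 with the smallest p where none did. *pdm3*, which the study follows by name, was always given. Further genes in the text illustrate classes and were chosen after their values were seen. Gene bodies, neighbours and promoter windows came from RefSeq Release 6, which has the dm6 coordinates. Alternatives were the floor, the scaling, the filters, the pseudocount, the peak threshold, the joining of peaks, a single fit of all 9 groups, the threshold of 0.05, leaving out each library, and the replicate number as a block. The methods state 4 replicates in each condition, and the wild-type libraries in DD analysed here numbered 3 in each group. Brains pooled for a library number about 50 by the labels, and the methods give another number.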

Additional observations from a re-analysis of the deposited data

Results flagged for a closer look

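Of 65 groups of 4 libraries, 5 held a library far from the others in a gene's summed CPM, where chance gives about 1 in 20. *B-H1* had 2.60 CPM in per01 non-clock replicate 3, with the other 3 libraries at 0 because their peaks were below the floor. *OdsH* had 19.3 CPM in ZT0 replicate 3 against 6.28 to 7.52 CPM in the others, and *lab* had 12.5 CPM in the same library against 14.0 to 14.2 CPM. *acj6* had 23.1 CPM in per01 CT36 replicate 4 against 28.0 to 28.2 CPM. *pdm3* had 94.2 CPM in per01 CT24 replicate 3 against 108 to 109 CPM.

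The difference between clock neurons and non-clock cells itself differed between DD and LD for the *B-H1* sum, by -1.53 (limma adjusted p = 0.0671), a value that depends on the floor. Over all genes 143 of 9673 passed that test. The change was 0.45 for the *hth* region at chr3R:10517325, -0.47 for the *hth* region at chr3R:10592901 and 0.37 for the *hth* region at chr3R:10638775 (limma adjusted p = 0.0397, 0.0550 and 0.0172). It was 0.30 for the *ey* region at chr4:715568, 0.45 for the *ct* region at chrX:7641040 and 0.62 for the *Lim1* region at chrX:8770921 (limma adjusted p = 0.0997, 0.0407 and 0.0138). Between per01 and wild type in DD the difference changed by -0.75 for the *ct* sum (limma adjusted p = 0.0396, with 69 of 9609 genes past the test) and by -0.34 for the *Dll* region at chr2R:24823557 (limma adjusted p = 0.0602). The *hth* regions at chr3R:10517325 and chr3R:10592901 and the *ey*, *ct* and *Dll* regions held no peak in any clock library. The floor stood in for all clock values there, and the spread among clock libraries was not measured. The wild-type DD libraries enter both tests. The causes of these differences were not tested.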

How the results depend on the processing

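The counts for clock neurons against non-clock cells stayed within 1.5 times under all alternatives run, and leaving out single libraries gave 81 to 103, 74 to 96 and 65 to 87 regions and 32 to 36, 24 to 29 and 24 to 29 genes in LD, DD and per01. Scaling by total tags moved the median of all genes in LD by -0.14. For CT36 against CT24 (1 region) the count was 4 with a floor from local background, 2 with total tags, 3 with summits joined within 150 bp, and 0 with no filter, a stricter peak threshold, one fit of all groups, an adjusted p of 0.05, X scaled apart or the replicate block, and 0 to 6 without single libraries. For DD against LD in clock neurons (37) it was 21 with summits joined, 17 with X scaled apart and 26 to 38 without single libraries. In non-clock cells (39) it was 22 with summits joined, 24 at an adjusted p of 0.05, 13 with X scaled apart, 22 with the replicate block and 7 to 73 without single libraries. For per01 against wild type in clock neurons (17) it was 9 with no filter, 8 at an adjusted p of 0.05 and 7 to 18 without single libraries. In non-clock cells (5) it was 3 with no filter, 2 at an adjusted p of 0.05, 1 with the replicate block and 1 to 5 without single libraries. Scaling X apart was chosen after seeing the data. Reversed values were the *acj6* sum in DD at 0.0190 and the *pdm3* sum in LD at -0.23 by the highest summit alone, and, with summits joined, the *ct* region at chrX:7625020 at 0.13 for DD against LD in non-clock cells and the *zfh2* region at chr4:506809 at 0.48 for per01 against wild type in clock neurons. The cause was not tested. In the other values of named genes and regions 1767 kept direction and call and 95 lost the call. Correlations of the deviations of same-numbered clock and non-clock libraries ran from -0.10 to 0.49 in LD (median 0.06, against -0.04 for other pairs), from 0.01 to 0.28 in DD (0.11 against -0.07) and from -0.02 to 0.32 in per01 (0.09 against -0.03). Same-numbered libraries had the higher median in each comparison, although at least 1 of their pairs was under 0.1. The main fits did not use the numbers as pairs, and whether they mark pairs was not tested. The block gave 97, 96 and 81 regions and 35, 29 and 28 genes for cell type, 33 regions for DD against LD and 13 for per01 against wild type in clock neurons, and 0 for the other comparisons of time. Weak peaks are limited by depth: a level below the floor of 1.94 to 2.57 CPM for a gene's peaks was not detectable in the shallowest library of a comparison.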
